A study of Rattus norvegicus with 4 samples.

Results

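Interferon-inducible genes were followed across the 4 arrays of a study of rat hippocampal neural progenitor cells. The genes were Ifi27l2b, Ifi27, Mx1, Mx2, Isg15, Irf1, Irf7, Stat2 and Ifit3, found by their symbols in the platform annotation, and all 9 were on the array, among 14217 named genes. The set was chosen by measured values: Ifi27l2b and Mx2 were selected on their expression values with KHS101, which lay on opposite sides of the solvent control, so those differences are descriptions. The cells, from Fisher 344 rats and of early passage, had been kept in N2 medium for 4 days with KHS101 at 5 uM, with KHS101 at 1.7 uM, with 1 uM retinoic acid together with forskolin, or with the solvent dimethyl sulfoxide (DMSO, 0.1%), per the labels, which do not say how many animals or cultures gave each RNA. KHS101 is a synthetic compound that the series title links to faster formation of neurons, retinoic acid with forskolin was the positive control and DMSO the negative control. How much forskolin was added is not stated in the labels, and the design text lists this control as retinoic acid without it. No interferon was among the treatments.

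Interferons are secreted proteins that cells release on viral infection. Type I interferons bind a receptor made of IFNAR1 and IFNAR2, whose kinases JAK1 and TYK2 activate STAT2. STAT2 and IRF9 are parts of the complex ISGF3, which binds the interferon-stimulated response element (ISRE) of its target genes. Interferon gamma acts through another receptor, and genes that respond to it can carry a gamma-activated site (GAS). In brain tissue, neural cells of all kinds can respond, and the induced genes include the Mx GTPases, the IFIT proteins, the ubiquitin-like ISG15 and small hydrophobic proteins of the IFI27 family.

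Each group was 1 array, so the differences below were not checked by replicates and have no p-values, and precision is limited by how few arrays there were. Values are deposited log2 expression values; a value under log2 = 5, taken as the limit of specific signal, was raised to that floor before a difference was formed. A gene was measured in a comparison if at least 1 of its 2 arrays lay above the floor, was called where the arrays differed by 2-fold or more in either direction, and has a lower bound ("at least") where 1 array lay at the floor. On the 4 arrays between 8389 and 8471 genes were above the floor. The 3' minus 5' difference of the actin control probe sets, a sign of RNA integrity, was 1.54 with KHS101 at 5 uM, 1.40 at 1.7 uM, 1.37 under retinoic acid with forskolin and 1.26 in DMSO on the log2 scale, and its part in the results was not tested. Of the 15 microglia and macrophage markers on the array 14 were at the floor on every array, and so were all 8 T and NK cell markers. The exception was P2ry12, described with Mx2 below. Of 11 neural progenitor markers 7 were above the floor on every array, Sox2, Nes and Vim among them, while Pax6, Sox1, Hes5 and Prom1 were at the floor; above it on every array were also 5 of 10 neuronal markers. Oligodendrocyte lineage markers numbered 6 above the floor at either KHS101 concentration, 8 under retinoic acid with forskolin and 7 in DMSO, of 9 on the array. In such bulk samples fewer cells of a type and less RNA per cell cannot be told apart.

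Promoter sequences bear on which members carry the DNA elements that interferon signalling acts on. RefSeq windows on the GRCr8 assembly matched 6 of the 9 members by symbol: Ifi27, Mx1, Irf1, Irf7, Stat2 and Ifit3. The 250 bases before the annotated start were searched on both strands for an ISRE core, GAAANNGAAA, and for a GAS, TTCNNNGAA. Ifi27, Irf7 and Ifit3 held the ISRE core and Irf1 the GAS, while neither was found in the Mx1 and Stat2 windows. The 4 windows with a match follow, 5' to 3' in the direction of the gene, with the matches in capitals.
Ifi27, chr6:128355062-128355311, plus strand: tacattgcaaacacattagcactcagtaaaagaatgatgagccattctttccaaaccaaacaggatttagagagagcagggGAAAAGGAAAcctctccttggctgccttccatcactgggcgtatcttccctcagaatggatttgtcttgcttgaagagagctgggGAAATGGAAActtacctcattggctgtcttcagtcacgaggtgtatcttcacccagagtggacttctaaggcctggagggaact
Irf7, chr1:205800024-205800273, minus strand: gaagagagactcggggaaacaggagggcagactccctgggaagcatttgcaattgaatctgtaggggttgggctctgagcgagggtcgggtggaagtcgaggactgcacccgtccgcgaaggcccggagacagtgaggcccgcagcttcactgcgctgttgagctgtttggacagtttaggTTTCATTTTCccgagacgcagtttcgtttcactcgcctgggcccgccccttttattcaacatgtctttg
Ifit3, chr1:241527076-241527325, plus strand: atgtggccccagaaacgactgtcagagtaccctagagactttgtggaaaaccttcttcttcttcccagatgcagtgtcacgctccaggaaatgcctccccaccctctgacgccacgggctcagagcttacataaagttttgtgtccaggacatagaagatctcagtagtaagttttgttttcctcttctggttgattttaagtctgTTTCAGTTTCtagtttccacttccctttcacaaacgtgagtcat
Irf1, chr10:38417685-38417934, plus strand: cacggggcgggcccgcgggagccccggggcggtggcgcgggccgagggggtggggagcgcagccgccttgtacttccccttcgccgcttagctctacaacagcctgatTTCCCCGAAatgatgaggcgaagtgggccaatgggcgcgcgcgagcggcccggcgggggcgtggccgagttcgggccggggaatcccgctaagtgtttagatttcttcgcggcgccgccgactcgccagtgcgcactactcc
Ifi27 held 2 ISRE cores, GAAAAGGAAA and GAAATGGAAA, beginning 169 and 84 bases before the start. In Irf7 and Ifit3 the core lay on the opposite strand and began 69 and 44 bases before the start. The GAS of Irf1 began 142 bases before it, and no match of one motif overlapped one of the other. Of all 33469 RefSeq windows of this length, 3.41% held an ISRE core and 7.67% a GAS. A match is a run of letters and not a shown binding site.

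Ifi27l2b, also known as isg12(b), is a member of the IFI27 family of small hydrophobic proteins. Its log2 values were 12.96 with KHS101 at 5 uM, 12.30 at 1.7 uM, 6.97 under retinoic acid with forskolin and 6.77 in DMSO. Both KHS101 arrays were high and the other arrays were low and close to each other. The difference from DMSO was 6.19 on the log2 scale (72.8-fold higher) at 5 uM and 5.53 (46.1-fold higher) at 1.7 uM. These were the third highest differences of 8543 and of 8533 measured genes. With retinoic acid and forskolin the difference from DMSO was 0.20, which ranked 2527 of 8535 from the highest. Between the KHS101 concentrations the difference was 0.66, or 1.58-fold higher at 5 uM, short of 2-fold. The gene had 1 probe set, 1376845_at, which was above the floor on every array.

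Ifi27, or isg12(a), is the best known gene of the family in human cells, and in the RefSeq gene table no protein-coding gene lay between it and Ifi27l2b. Its log2 values were 11.48 with KHS101 at 5 uM, 11.78 at 1.7 uM, 12.72 under retinoic acid with forskolin and 11.98 in DMSO. The order of the arrays was not that of its neighbour: the KHS101 arrays were the lowest and the retinoic acid array the highest. Its differences from DMSO were -0.50 and -0.20 at 5 and 1.7 uM and 0.75 with retinoic acid and forskolin, none of them 2-fold. Against retinoic acid with forskolin, Ifi27 was 2.36-fold lower at 5 uM and 1.93-fold lower at 1.7 uM, on either side of the 2-fold line. With the arrays centred on reference genes, 2 members in place of 1 were called lower at 1.7 uM. The window with 2 ISRE cores thus belonged to a gene with signal on all 4 arrays.

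Mx2 encodes a dynamin-like GTPase, which in the rat is cytoplasmic; the Mx2 protein acts against viruses, and the RefSeq table lists Mx3 as a synonym of this gene. Its log2 values on probe set 1387283_at were 4.49 with KHS101 at 5 uM, 4.78 at 1.7 uM, 8.25 under retinoic acid with forskolin and 7.87 in DMSO. The KHS101 arrays lay under the floor and the other arrays well above it. Mx2 was therefore at least 7.33-fold lower than in DMSO at either KHS101 concentration, a log2 bound of -2.87, and no order of the concentrations can be read from values under the floor. Against retinoic acid with forskolin it was at least 9.52-fold lower at either concentration (log2 bound -3.25). Retinoic acid with forskolin differed from DMSO by 0.38.

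The other Mx2 probe set, 1369202_at, gave no such pattern. It read 2.77 with KHS101 at 5 uM, 2.66 at 1.7 uM, 2.79 under retinoic acid with forskolin and 2.75 in DMSO, under the floor on every array. The Mx2 difference thus rests on 1 of 2 probe sets, and with the mean of both, each raised to the floor, the bound was -1.44 at either concentration. With a floor of log2 = 6 it was -1.87. Both probe sets are annotated with the same transcript. Probe sequences were not used here, so which Mx transcripts each probe set reads was not tested.

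**Figure D1:**
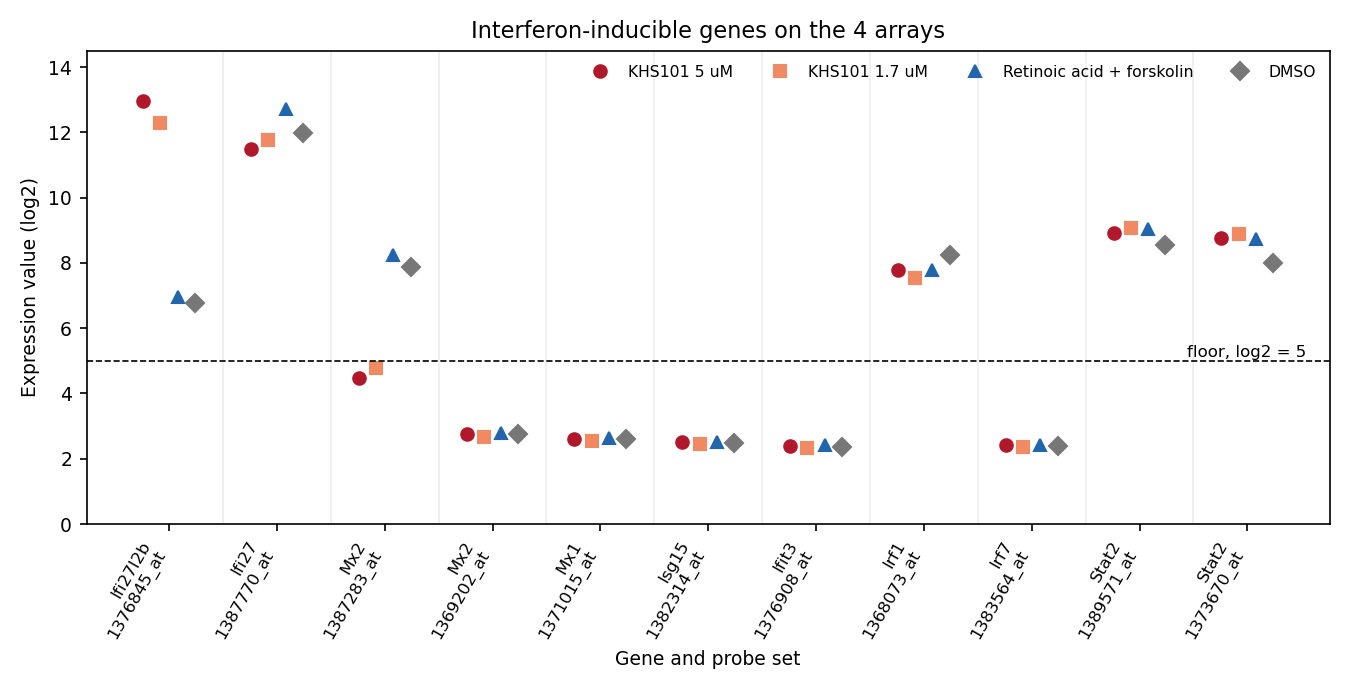
Log2 expression values (vertical axis) of every probe set of the 9 genes (horizontal axis) on the 4 arrays, 1 point per array, with the floor of log2 = 5 as a dashed line. Ifi27l2b is at 12.96 and 12.30 with KHS101 and at 6.97 and 6.77 on the other arrays, Mx2 crosses the floor on 1 of its 2 probe sets, and 5 of the 11 probe sets lie between 2.32 and 2.79 on all arrays.

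Mx1, Isg15, Ifit3 and Irf7 had no signal above the floor on any array. Mx1, which encodes the nuclear Mx GTPase of the rat, lay between 2.56 and 2.63 over the 4 arrays. Isg15, a ubiquitin-like modifier, lay between 2.46 and 2.50. Ifit3, a tetratricopeptide repeat protein of the IFIT family, lay between 2.32 and 2.41, and Irf7, the transcription factor that amplifies type I interferon production, between 2.36 and 2.42. Each had 1 probe set, and none of the 4 arrays stood out. These 4 genes entered no difference. Irf7 and Ifit3 are among the members whose windows held an ISRE core, as was Ifi27, which was above the floor throughout.

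Stat2, the STAT protein particular to interferon signalling, was above the floor on every array with both probe sets. The probe set with the higher mean read 8.93 with KHS101 at 5 uM, 9.06 at 1.7 uM, 9.05 under retinoic acid with forskolin and 8.55 in DMSO. DMSO was the lowest array, and the 3 treatments differed from it by 0.39, 0.51 and 0.50. The other probe set read 8.77, 8.89 and 8.74 on the same treated arrays against 7.99 in DMSO, with differences of 0.78, 0.91 and 0.75. Neither reached 2-fold.

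Irf1, a transcription factor that interferon gamma induces, had log2 values of 7.79 with KHS101 at 5 uM, 7.54 at 1.7 uM, 7.79 under retinoic acid with forskolin and 8.25 in DMSO. Here DMSO was the highest array, with differences of -0.46, -0.71 and -0.46 in the same order of treatments. Stat2 and Irf1 thus lay on opposite sides of DMSO under all 3 treatments, both by less than 2-fold.

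Counted together, 5 of the 9 genes were measured against DMSO. At 5 uM 1 of 5 was higher and 1 was lower, where 6.16% of all measured genes were higher and 8.10% lower; at 1.7 uM the counts were again 1 and 1, beside 4.36% higher and 4.27% lower. The called genes were Ifi27l2b and Mx2, for which the set was drawn up, so nothing is read from these counts. With retinoic acid and forskolin 0 of 5 were higher and 0 lower, where 4.34% and 3.15% of all measured genes were. Between 5 and 1.7 uM 0 of 4 measured members were higher or lower, beside 0.812% and 1.73% of all genes. Against retinoic acid with forskolin, 1 of 5 was higher and 2 were lower at 5 uM (8.94% and 10.2% of all genes), and 1 was higher and 1 lower at 1.7 uM (5.93% and 5.39%). The member that entered the count at 5 uM was Ifi27.

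**Figure D2:**
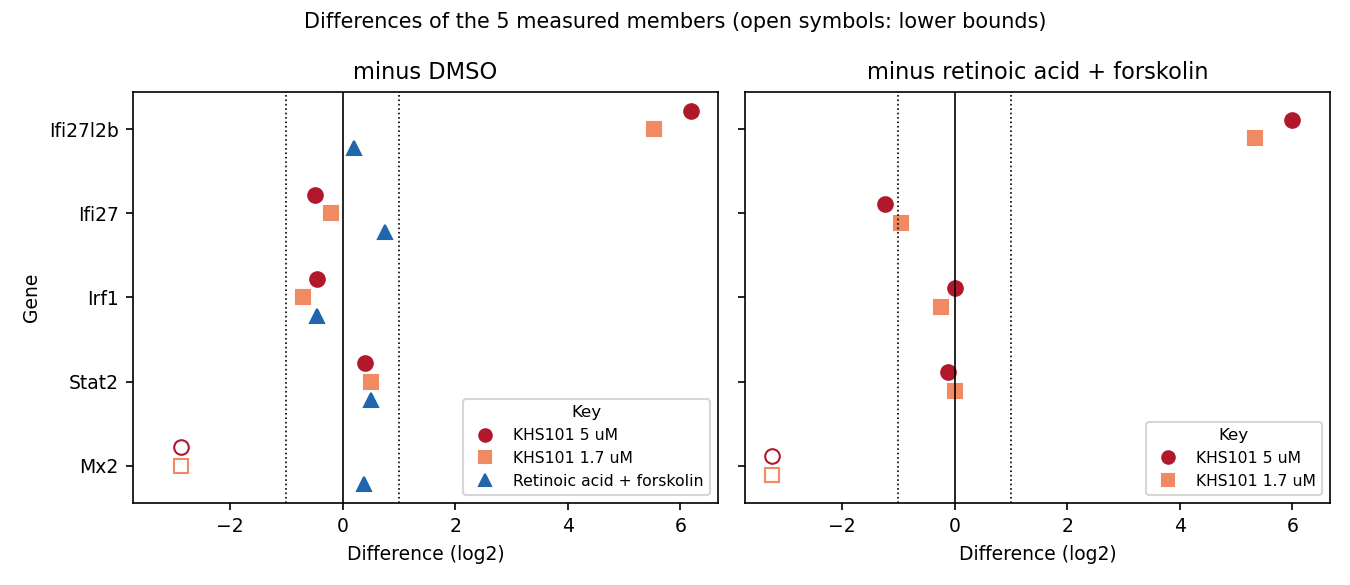
Log2 differences (horizontal axes) of the 5 measured genes (vertical axis) from DMSO, left, and from retinoic acid with forskolin, right, 1 point per comparison. Dotted lines mark 2-fold and open symbols are lower bounds; Ifi27l2b and Mx2 lie far apart under KHS101, and Ifi27, Irf1 and Stat2 lie within 1 log2 unit of DMSO under every treatment.

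The rest of the pathway was described with lists of ligands, receptors, transducers, regulators and induced genes. Without the 9 members they held 181 genes, of which 129 were on the array with a probe set of a single gene and 62 were above the floor on at least 1 array. The other 67, or 51.9% of those on the array, were at the floor throughout, beside 39.2% of all named genes. All 4 ligand genes on the array were among them: Ifnb1, Ifng, Ifnk and Il6. With the members included, 21 of the 30 antiviral effectors were at the floor on every array, among them Ifit1, Rsad2, Oas1a and Bst2, as were 10 of 11 genes of the interferon gamma GTPases and chemokines, with Cxcl9 and Cxcl10. The floor is a chosen limit: values under it were treated as no specific signal, which does not show that a transcript was absent.

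Of 6 receptor genes on the array 5 were above the floor, while Ifnlr1, a chain of the interferon lambda receptor, was at the floor on every array. Ifnar1, a chain of the type I interferon receptor, read 8.65 with KHS101 at 5 uM, 8.57 at 1.7 uM, 8.96 under retinoic acid with forskolin and 9.02 in DMSO. Its partner Ifnar2 read 9.84, 10.36, 10.28 and 10.07 in that order, and the interferon gamma receptor chain Ifngr1 9.71, 9.53, 9.99 and 9.90. Of 5 measured receptor genes 0 passed 2-fold under any treatment, with median differences from DMSO between -0.19 and 0.08. Jak1 and Tyk2, the kinases of the type I receptor, differed from DMSO by at most 0.36. Among sensors of foreign nucleic acid 0 of 7 measured genes passed 2-fold. With the shares of all genes given above, so few genes can give 0 calls without standing apart from the rest. Ifih1, which senses double-stranded RNA, differed by 0.59, 0.61 and -0.30.

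Over all other pathway genes, 7 of 59 measured were higher and 3 lower than in DMSO with KHS101 at 5 uM, with a median difference of -0.05 beside 0.00 over all genes. At 1.7 uM 4 of 60 were higher and 1 was lower (median -0.03, beside -0.01), and with retinoic acid and forskolin 3 of 61 were higher and 2 lower (median 0.00, beside -0.03). As shares, 11.9% were higher and 5.08% lower at 5 uM, beside 6.16% and 8.10% of all measured genes. At 1.7 uM the shares were 6.67% and 1.67%, beside 4.36% and 4.27%, and with retinoic acid and forskolin 4.92% and 3.28%, beside 4.34% and 3.15%. These comparisons share the DMSO array. Nothing is read from these small counts about the pathway as a whole.

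**Figure D3:**
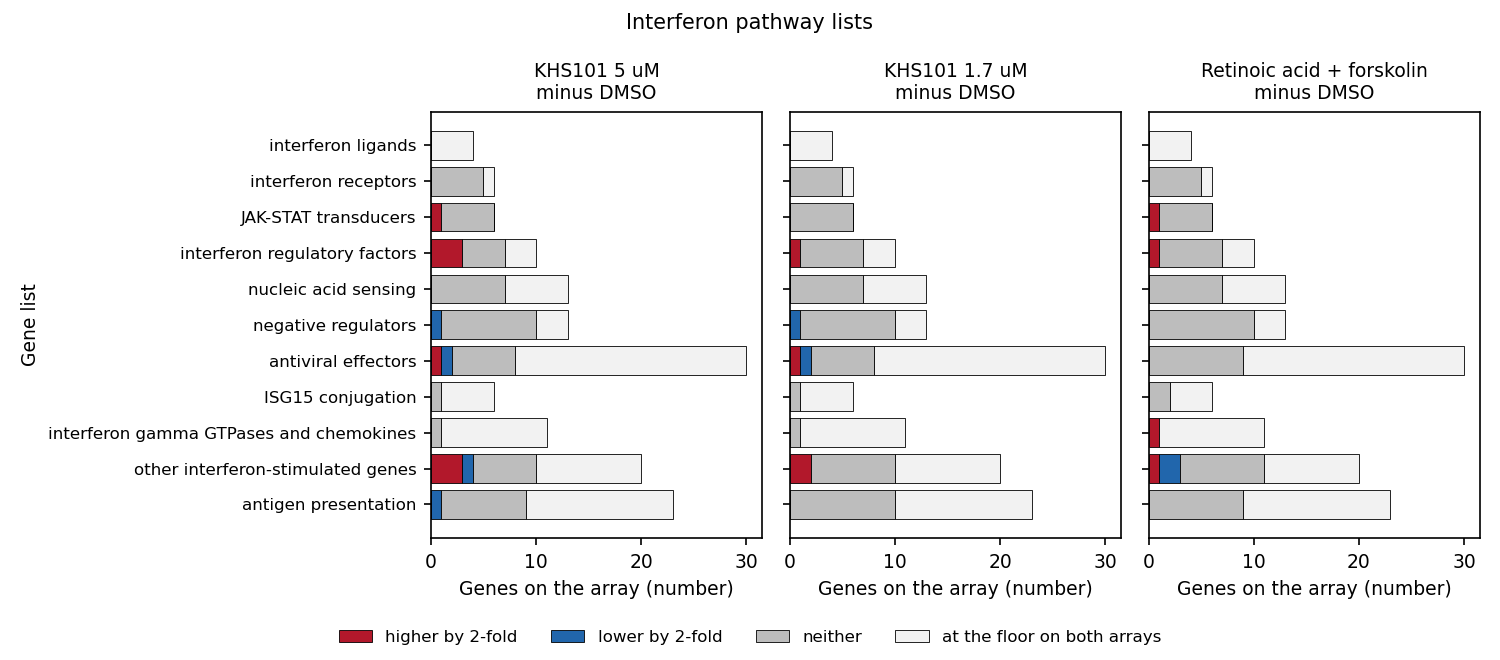
Number of genes on the array (horizontal axes) in each interferon pathway list except the IFI27 family, which is not drawn (vertical axis). Genes are split into higher, lower, neither, or at the floor on both arrays, for each treatment minus DMSO. Members of the set are included. A gene can stand in more than 1 list. Ligands, antiviral effectors, ISG15 conjugation, gamma GTPases and chemokines, and antigen presentation are mostly at the floor.

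Regulators held several of the called genes. Irf3, the transcription factor that starts interferon beta production, read 10.51 with KHS101 at 5 uM, 9.75 at 1.7 uM, 8.29 under retinoic acid with forskolin and 8.53 in DMSO. It was 3.95-fold higher than in DMSO at 5 uM and 2.34-fold higher at 1.7 uM. Irf2bp2, a corepressor that binds IRF2, was 2.20-fold higher at 5 uM, and its other probe set differed by 1.06. Irf9, the DNA-binding part of ISGF3, read 6.31, 5.27, 6.45 and 5.21 in the same order of arrays, so that the 5 uM and retinoic acid arrays were high and the 1.7 uM and DMSO arrays low. It was 2.15-fold higher than in DMSO at 5 uM and 2.37-fold higher with retinoic acid and forskolin, but with a floor of log2 = 6 these log2 differences were 0.31 and 0.45, and with the mean of all probe sets 0.55 and 0.62, which ended both calls. Irf9 was also the 1 of 59 genes that was higher at 5 than at 1.7 uM (2.05-fold). That share was 1.69%, beside 0.812% of all measured genes. The call ended with a floor of log2 = 6, with the mean of all probe sets and with reference gene centring. Socs2, an inhibitor of cytokine receptor signalling, was 3.13-fold lower at 5 uM and 2.65-fold lower at 1.7 uM.

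Among induced genes, Ifit2 was the antiviral effector called higher. Its log2 values were 10.88 with KHS101 at 5 uM, 10.75 at 1.7 uM, 9.36 under retinoic acid with forskolin and 9.56 in DMSO, and both KHS101 arrays were high. It was 2.49-fold higher than in DMSO at 5 uM and 2.27-fold higher at 1.7 uM, and its other probe set differed by 1.42 and 1.27. Its relatives Ifit1 and Ifit3 were at the floor throughout. Nmi, which binds STAT proteins, read 9.15, 8.93, 7.68 and 7.23 in the same order. Its difference from DMSO was 1.92 at 5 uM and 1.70 at 1.7 uM, with 2.02 and 1.63 on its other probe set.

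Casp4, an inflammatory caspase, and Lgals3bp, a secreted galectin ligand, lay on opposite sides of DMSO in the KHS101 and retinoic acid arrays. Casp4 read 13.29 with KHS101 at 5 uM, 12.87 at 1.7 uM, 10.18 under retinoic acid with forskolin and 11.28 in DMSO. It was 4.04-fold and 3.02-fold higher than in DMSO at 5 and 1.7 uM, and 2.14-fold lower with retinoic acid and forskolin. Lgals3bp was 2.10-fold higher at 5 uM (log2 1.07, and 0.97 with reference gene centring) and 2.35-fold lower with retinoic acid and forskolin; at 1.7 uM it read 9.97 against 8.99 in DMSO, just short of 2-fold.

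Genes lower with KHS101 at 5 uM included Psmb9, a subunit of the immunoproteasome that cuts peptides for antigen presentation. Psmb9 read 7.11 with KHS101 at 5 uM, 8.53 at 1.7 uM, 8.10 under retinoic acid with forskolin and 9.05 in DMSO, and was 3.83-fold lower than in DMSO at 5 uM. It was also the 1 gene of 59 lower at 5 than at 1.7 uM (2.67-fold), or 1.69%, beside 1.73% of all measured genes. B2m, the light chain of class I antigen-presenting molecules, read 13.46, 13.33, 13.20 and 12.87 in the same order, so it differed by 0.58 at 5 uM, on the other side of DMSO from Psmb9. Its other probe set read 10.86, 10.47, 10.12 and 9.72, and differed by 1.14 at 5 uM, past 2-fold, so its probe sets disagree on the call. B2m was also among the reference genes used for centring. Dtx3l, a ubiquitin ligase that pairs with Parp9, was 2.09-fold lower at 5 uM (log2 -1.07, and -0.94 with a floor of log2 = 6, short of 2-fold). Parp9 read 3.51 with KHS101 at 5 uM, 5.17 at 1.7 uM, 6.80 under retinoic acid with forskolin and 5.45 in DMSO, and was 2.54-fold higher with retinoic acid and forskolin, a log2 difference of 1.34 that was 0.80 with a floor of log2 = 6. Irgm2, an interferon gamma-inducible GTPase, was 2.31-fold higher with that treatment.

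**Figure D4:**
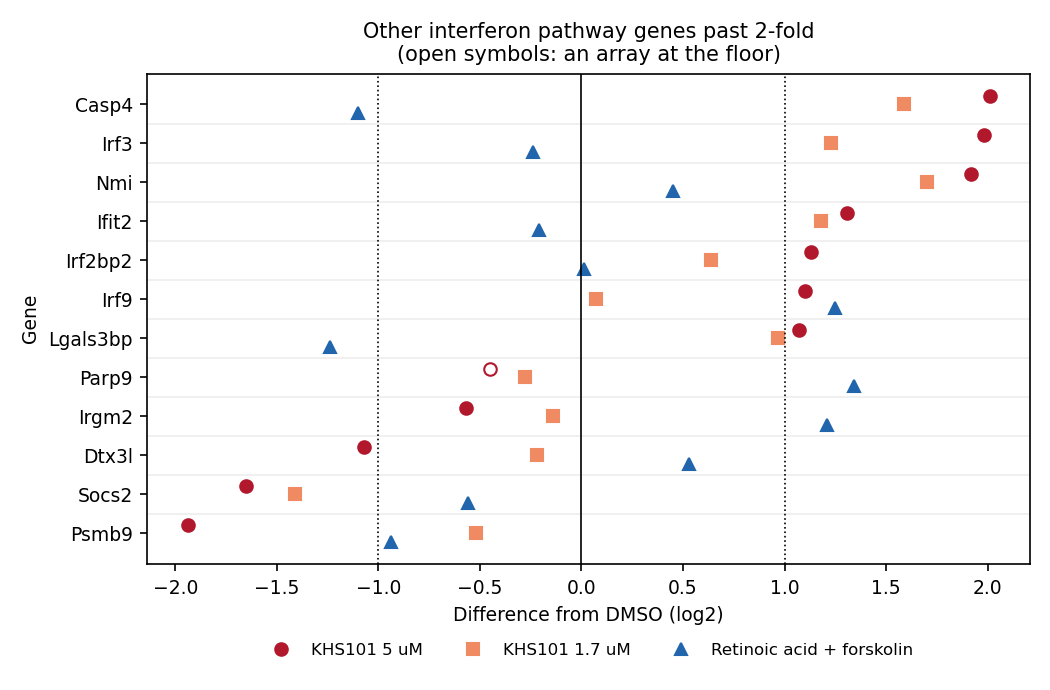
Log2 differences from DMSO (horizontal axis) of the 12 other pathway genes that passed 2-fold (dotted lines) under at least 1 treatment (vertical axis), 1 point per treatment. Casp4, Irf3, Nmi and Ifit2 are past 2-fold upward at both KHS101 concentrations and Socs2 downward; the open symbol marks Parp9, at the floor with KHS101 at 5 uM.

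KHS101 was also set against retinoic acid with forskolin. At 5 uM 6 of 61 measured pathway genes were higher and 4 lower, and at 1.7 uM 5 of 62 were higher and 3 lower. The shares were 9.84% and 6.56% at 5 uM, beside 8.94% and 10.2% of all measured genes, and 8.06% and 4.84% at 1.7 uM, beside 5.93% and 5.39%, so they lay near those of all genes. Casp4 was 8.65-fold higher at 5 uM and 6.46-fold at 1.7 uM, and Lgals3bp 4.94-fold and 4.63-fold. Irgm2 was 3.43-fold lower at 5 uM and 2.54-fold lower at 1.7 uM. Parp9 was at least 3.47-fold lower at 5 uM and 3.08-fold lower at 1.7 uM, both of which became -0.80 on the log2 scale with a floor of log2 = 6.

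Genes with the pattern most like a member were those whose 3 log2 differences from DMSO lay nearest, by the largest of the 3 gaps, among 8645 other genes above the floor on at least 1 array. The 5 nearest to Ifi27l2b were Cth, Trib3, Slc7a11, Nupr1 and Chac1. Cth, an enzyme of cysteine synthesis, had a largest gap of 0.20. Its log2 values were 11.37 and 10.70 at 5 and 1.7 uM, 2.97 under retinoic acid with forskolin and 3.48 in DMSO. Both of the last lay under the floor, so its differences from DMSO of 6.37 and 5.70 are bounds. The gap of Cth and its place in the order therefore depend on the floor. The gap was 0.90 for Trib3, a pseudokinase, 1.30 for Slc7a11, the cystine transporter, 1.46 for Nupr1 and 1.70 for Chac1, a glutathione-degrading enzyme. Nupr1 read 3.18 under retinoic acid with forskolin and 4.78 in DMSO, under the floor, so its gap depends on the floor too. Trib3, Slc7a11 and Chac1 were above the floor on every array. Likeness here is over 3 differences that share 1 DMSO array.

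The 5 nearest to Mx2 were Bmp4, P2ry12, C1ql1, Ackr3 and Lrrc4, with largest gaps between 0.36 and 0.57. The Mx2 differences with KHS101 are bounds and each of these genes had 1 or 2 arrays at the floor, so these gaps and their order depend on the floor. C1ql1, for example, read 2.30 at 5 uM, further under the floor than Mx2. Bmp4, a secreted growth factor, read 4.31 with KHS101 at 5 uM, 5.01 at 1.7 uM, 8.15 under retinoic acid with forskolin and 7.53 in DMSO. P2ry12, a purine receptor known from microglia and platelets, read 3.78, 4.70, 8.50 and 7.66 in the same order. It was at least 6.32-fold lower than in DMSO at either KHS101 concentration, as the sole microglia and macrophage marker above the floor on any array; Aif1, Itgam, Csf1r and Tyrobp were at the floor on all 4. With values under the floor raised to it, the summed level of that list was 75.0 at either KHS101 concentration, 78.5 under retinoic acid with forskolin and 77.7 in DMSO, and P2ry12 alone moved it. The summed level of the oligodendrocyte lineage list, which was also lower with KHS101, was 84.1 at 5 uM, 87.4 at 1.7 uM, 95.8 under retinoic acid with forskolin and 92.3 in DMSO. Other marker lists also differed between arrays. The neural progenitor list summed to 98.1, 100.8, 101.6 and 102.9 in that order. At 5 uM 3 of its 7 measured genes were called lower than in DMSO and 1 higher, beside 8.10% and 6.16% of all measured genes. Sox3, Fabp7 and Notch1 differed by -2.30, -2.11 and -1.45, and Hes1 by 1.34. Nes (0.52) also lay above DMSO, while Sox2 (-0.44) and Vim (-0.39) lay below it, all short of 2-fold. The fibroblast and meningeal list summed to 51.8, 52.8, 60.0 and 50.1; in it Postn differed by 1.80 at 5 uM and 2.78 at 1.7 uM, and Mgp by 7.93 with retinoic acid and forskolin. Of the endothelial markers, Kdr differed by 1.54 with retinoic acid and forskolin and was at the floor on the other arrays. The part of cell makeup in the Mx2 difference was not tested.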

How the data were processed

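Gene expression was measured on 4 Affymetrix rat arrays, 1 per group. The authors deposited log2 expression values for 31099 probe sets; per the submitters' processing notes, the tools were GCRMA and R 2.6.2, with no role stated and no genome build. That the scale is log2 was inferred from the values, with array medians of 3.67 to 3.76. Arrays scaled to each other cannot show a change of all genes in 1 direction. Per the platform annotation, 20826 probe sets named 1 gene; 436 with several genes and 9780 unnamed here were left out, as were 57 controls. A gene took its probe set with the highest mean. Values under log2 = 5 were raised to it, and calls were made at 2-fold; no test was run. The calling step was run on simulated data whose changes exceeded the 2-fold limit, which tests the code and not the calls made here. Members and lists were chosen with earlier results of these data known. Genes named were all members, up to 2 called genes per list and direction, those on which small counts turn, and the 5 nearest patterns; genes given to show a list at the floor, and receptors, kinases and Ifih1, B2m and Lgals3bp at 1.7 uM, were chosen after their values were seen. Promoter windows and gene order came from RefSeq (GRCr8). Python 3.11.15, numpy 2.4.6 and pandas 2.3.3 were used.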

Additional observations from a re-analysis of the deposited data

How the results depend on the processing

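Each group was 1 array, so no value carries an error and the 1.5-fold limit used here to call a difference unmoved is not a replicate spread. No paired analysis was possible because each group holds 1 array and the labels give no replicate numbers. The settings varied were floors of log2 = 4 and 6, no floor, calls at 3-fold and 1.5-fold, the mean of all probe sets of a gene, quantile normalization and centring on reference genes. No difference of a member of 2-fold or more changed sign. Below 2-fold, Stat2 at 1.7 uM against retinoic acid with forskolin was 0.01, but -0.01 with quantile normalization and -0.09 with reference gene centring, and Irf1 at 5 uM against the same array was 0.00, but 0.07 and -0.14. Under these settings 166 differences of members moved by less than 1.5-fold and 8 by more, and 151 counts stayed within 1.5 times and 41 did not. Many of the 166 could not move by construction. Ifi27l2b, Ifi27 and Irf1 each had 1 probe set above log2 = 6 on every array, so the floors and the probe set mean left them unchanged. The floors likewise could not move Stat2. The 8 were all of Mx2: -1.87 against DMSO and -2.25 against retinoic acid with forskolin, at either KHS101 concentration, with the floor of 6, and -1.44 and -1.63 with the mean of its probe sets. A higher floor shortens a bound by construction, and without a floor Mx2 differed from DMSO by -3.39 at 5 uM and -3.10 at 1.7 uM. Centring on reference genes moved the median of all measured genes to -0.139 for 5 uM against retinoic acid with forskolin.

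For members, calls at 3-fold left 1 lower at 5 uM against retinoic acid with forskolin. Calls at 1.5-fold gave 2 lower at 1.7 uM against DMSO, 2 lower at 1.7 uM against retinoic acid with forskolin, 1 higher at 5 against 1.7 uM and 1 higher with retinoic acid and forskolin against DMSO. Centring on reference genes gave 2 lower at 1.7 uM against retinoic acid with forskolin.

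For the other pathway genes against DMSO, 3-fold calls gave 3 higher at 5 uM, 2 higher and 0 lower at 1.7 uM and 0 either way with retinoic acid and forskolin. At 1.5-fold these were 11 higher and 5 lower, 9 and 3, and 6 and 6. Between the KHS101 concentrations 3-fold gave 0 either way and 1.5-fold gave 2 each. Against retinoic acid with forskolin, 3-fold gave 3 higher at 5 uM, and 2 higher and 1 lower at 1.7 uM; 1.5-fold gave 10 each at 5 uM and 8 each at 1.7 uM. A floor of 4 and no floor each gave 5 lower at 5 uM against DMSO, 2 lower at 5 against 1.7 uM and 7 lower at 5 uM against retinoic acid with forskolin. A floor of 6 gave 1 higher with retinoic acid and forskolin against DMSO, 0 higher at 5 against 1.7 uM and 1 lower at 1.7 uM against retinoic acid with forskolin. The mean of probe sets and reference gene centring also gave 0 higher at 5 against 1.7 uM, and quantile normalization and reference gene centring each gave 2 lower at 1.7 uM against DMSO. The balance of calls turned at 5 uM against retinoic acid with forskolin, where 6 higher and 4 lower became 6 and 7 with a floor of 4 or none and 5 and 6 with reference gene centring. It also turned with retinoic acid and forskolin against DMSO, where 3 and 2 became 1 and 2 with a floor of 6. Of the differences of the other pathway genes named, 414 moved by less than 1.5-fold and 14 by more, all of Irf9 or Parp9. Values above every floor, such as those of Casp4 and Irf3, could not move with the floors. Beyond the floors and fold limits, which set the counts by construction, the cause was not tested.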
